A study of Mus musculus with 5 samples.

Results

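Amino acids cross the plasma membrane through several transporter families, and 10 named genes of these families were described here in adult mouse heart muscle cells (cardiomyocytes): Slc3a2, Slc7a1, Slc7a5, Slc7a6, Slc1a4, Slc1a5, Slc38a1, Slc38a2, Slc38a10 and Slc43a1. They were taken by gene symbol from a table of 12446 genes, which listed 9 of the 10. The expression of Slc43a1, which encodes the uniporter LAT3, was not analysed here. The OSKM-CMs group had 3 libraries (replicates 1, 2 and 3) from male C57BL/6 mice that received a mixture of AAV9 vectors for His6-tagged Oct4, Flag-tagged Sox2, HA-tagged Klf4 and V5-tagged Myc. The Control-CMs group had 2 libraries (replicates 3 and 5) from mice of the same strain and sex that received an AAV vector for blue fluorescent protein. In both groups the vectors were injected into the thoracic cavity at 8 weeks of age and carried the cTnT promoter, which drives expression in cardiomyocytes, and the age is given as 12 to 14 weeks. RNA came from purified cardiomyocytes. No label ties a library to its own animal, so p-values reflect only how these 5 libraries vary, which may be technical.

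Slc3a2 encodes the CD98 heavy chain, which is joined by a disulfide bond to light chains such as LAT1 (Slc7a5) and y+LAT2 (Slc7a6) and brings them to the cell surface. LAT1 exchanges large neutral amino acids such as leucine for intracellular ones, and system A carriers such as SNAT2 (Slc38a2) use the sodium gradient to accumulate small neutral amino acids and glutamine. In many cell types amino acid shortage raises Slc38a2 and other transporter genes through the transcription factor ATF4, and in tumour cells several of these genes are known targets of MYC, one of the delivered factors.

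Promoter windows of transporters that rose are shown first, since their letters can be set beside the motifs of the delivered factors and of ATF4. Part of the Slc1a4 window was added because it held a match to the ATF4 motif. RefSeq windows (GRCm38.p6, from 250 bases before to 50 bases after a transcript start, 300 bases in all) were at hand for 7 of the 10 genes. They covered Slc38a2 and Slc7a6 among those that rose, and Slc7a5 had none. Capitals mark matches, on either strand, to CACGTG (the E-box bound by Myc), ATGCAAAT (Oct4), ACAANGG (Sox2), GGGNGTGG (Klf4) or TGATGNAA (the composite element of ATF4 and C/EBP factors).
Slc38a2, chr15:96699729-96699978, minus strand, the 250 bases before the start: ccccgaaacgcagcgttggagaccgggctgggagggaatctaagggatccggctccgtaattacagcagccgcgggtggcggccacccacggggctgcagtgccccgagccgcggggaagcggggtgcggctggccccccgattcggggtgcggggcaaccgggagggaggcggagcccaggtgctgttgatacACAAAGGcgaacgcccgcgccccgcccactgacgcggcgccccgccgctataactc
Slc7a6, chr8:106168604-106168853, plus strand, the 250 bases before the first of its starts: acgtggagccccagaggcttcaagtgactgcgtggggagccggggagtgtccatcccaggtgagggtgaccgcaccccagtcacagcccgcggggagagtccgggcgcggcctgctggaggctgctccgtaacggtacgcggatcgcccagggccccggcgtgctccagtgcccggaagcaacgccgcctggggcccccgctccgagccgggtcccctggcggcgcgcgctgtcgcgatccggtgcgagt
Slc1a4, chr11:20332706-20332735, minus strand, 30 bases across its start: tccagcgtgcctcctgcgTTGCATCAtctc
The Slc38a2 window held 1 match, ACAAAGG at positions -56 to -50 from the start, of a motif found in 13.6% of all 32851 windows. Neither Slc7a6 window held any of the 5 motifs. The Slc1a4 window held the reverse complement of the ATF4 element, TTGCATCA, at positions -4 to 4, a motif found in 3.97% of windows. CACGTG, found in 7.15% of windows, occurred among these genes in the Slc43a1 window only, and ATGCAAAT, found in 1.74%, in none of them. GGGNGTGG, found in 17.6% of windows, matched 1 of the Slc7a1 windows and the Slc3a2 window. A match is a run of letters and not a measured binding site, and a missing match says only that the letters are not in this window.

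The table held RPKM, reads scaled to gene length and library size. Levels below are RPKM rescaled between libraries by TMM, which aligns the bulk of genes, and can be compared between genes. Recovered reads over the listed genes totalled 2691796 to 2780751 in OSKM-CMs and 3519628 and 3861805 in Control-CMs, and 3 reads, taken as the limit that a count of 0 allows, equalled 1.08 to 1.11 CPM (reads scaled to library size) in OSKM-CMs and 0.777 to 0.852 CPM in Control-CMs. Counting intervals cover counting error only. Myc transcripts averaged 28.4 scaled RPKM in OSKM-CMs and 0.536 in Control-CMs. All 10 cardiomyocyte markers checked were listed, and their summed level was 17679 to 21203 scaled RPKM in OSKM-CMs and 33425 to 37017 in Control-CMs, with 7 of the 10 lower and 0 higher. By the test described below, 15.7% of all tested genes were higher and 14.4% lower. With libraries scaled by their totals only, 3 cardiomyocyte markers were higher and 5 lower, where 36.5% of all tested genes were higher and 5.96% lower. With totals without mitochondrial genes, 2 markers were higher and 7 lower, where 23.8% of all tested genes were higher and 9.43% lower. The share of reads from mitochondrially encoded genes was 9.76% to 11.1% in OSKM-CMs and 21.2% to 24.7% in Control-CMs. Fibroblast markers (9 of 10 listed) summed to 123 to 260 and 71.2 to 154 scaled RPKM in OSKM-CMs and Control-CMs, endothelial markers (10 of 10) to 42.2 to 88.2 and 98.6 to 132, mural markers (7 of 7) to 65.9 to 108 and 81.6 to 97.2, and macrophage markers (8 of 11) to 9.86 to 46.3 and 15.0 to 59.0. Of the fibroblast markers tested, 4 of 9 were higher and 0 lower, although the sums overlapped: Postn averaged 42.8 scaled RPKM in OSKM-CMs and 1.30 in Control-CMs, and the collagen genes Col1a1, Col1a2 and Col3a1 were higher 7.03-fold, 6.79-fold and 4.53-fold. With limma voom on recovered reads, an alternative test, only 1 fibroblast marker was higher, where 15.2% of all tested genes were. Of the mural markers, 2 of 7 were higher (Cspg4 12.6-fold and Pdgfrb 2.03-fold) and 0 lower, and of the endothelial markers 0 of 10 were higher and 2 lower (Kdr and Egfl7). Of 7 tested macrophage markers, 0 were higher and 0 lower. None of 5 lymphocyte markers was listed. Of 5 erythroid markers, 1 (Hbb-b1) was listed, at 0.373 to 3.03 scaled RPKM in OSKM-CMs and 6.04 to 9.35 in Control-CMs. It was called lower (log2 fold change -1.76), but not with library totals only. The call was also absent in other settings, among them 0.1 as the value added before the log and leaving out OSKM-CMs replicate 1. In bulk RNA, fewer cells of a type and less RNA per cell cannot be told apart, and the part of these marker differences in the results below was not tested.

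Across the transporters, Slc7a5, Slc7a6 and Slc38a2 were higher in OSKM-CMs, and no tested member passed the test as lower. Differences were tested with limma on log2(scaled RPKM + 1) over all genes with a mean scaled RPKM of at least 1, and a gene was called at a Benjamini-Hochberg adjusted p below 0.05. Of the 9 listed transporters, 8 were tested, 3 were higher, 0 were lower and 5 did not pass, and Slc1a4 was below the minimum level. Among all 10901 tested genes, 15.7% were higher and 14.4% lower (30.1% in either direction), and 4600 genes had an unadjusted p below 0.05. Slc7a5 and Slc1a5 exceeded the minimum only through their OSKM-CMs libraries, so the count over the tested members is a description. With no minimum, all 9 listed members were tested, 3 were higher and 0 lower, where 14.8% and 12.7% of all 12446 genes were called. Every listed gene reached 1 CPM in 2 or more libraries, and Slc7a5 did so only in OSKM-CMs. The count with no minimum is therefore a description too. The median log2 fold change was 0.35 over the 8 tested members and 0.02 over all tested genes. When libraries were scaled by their totals only, the median over all genes became 0.36, 36.5% of genes were higher and 5.96% lower, and Slc3a2 joined the higher members. Of the 8 tested members, the libraries of the groups did not overlap for 4 that were above and 2 that were below controls, where 29.8% and 28.1% of all tested genes lay wholly above and below.

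**Figure D1:**
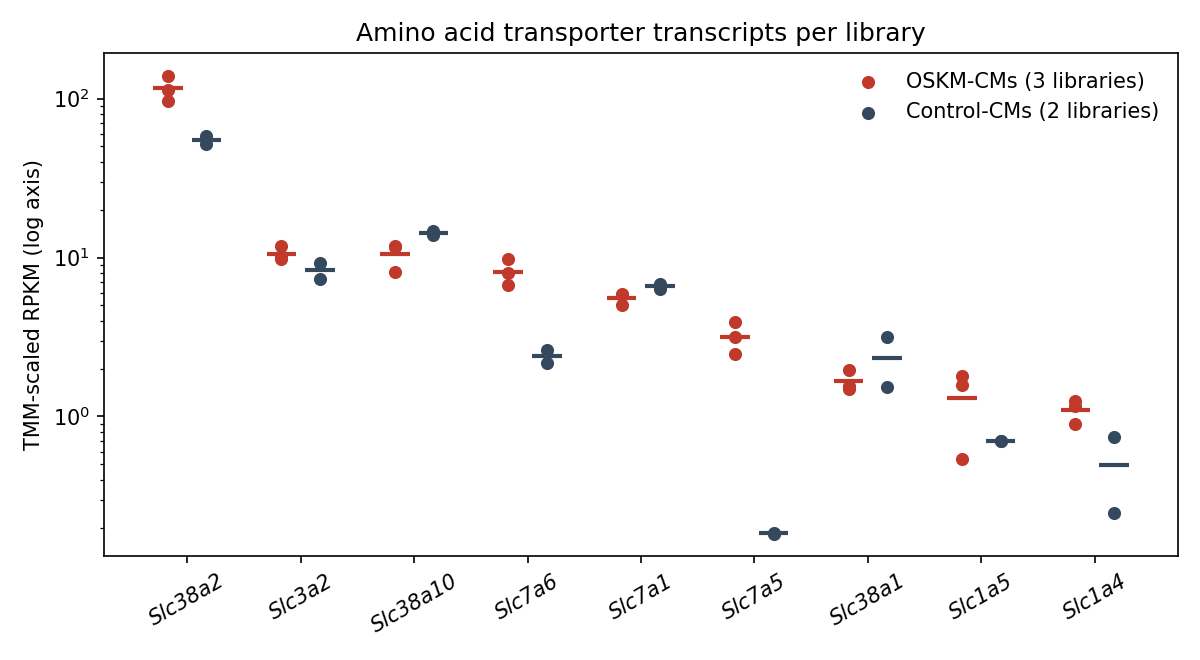
Level of each listed transporter in every library, as TMM-scaled RPKM on a log axis; points are libraries and bars are group means. Slc38a2 is far above the other genes in both groups, and Slc7a5 shows the widest gap, at 2.47 to 3.91 in OSKM-CMs and 0.183 to 0.185 in Control-CMs.

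The order of the levels differed between the groups. In OSKM-CMs, Slc38a2 averaged 116 scaled RPKM and was followed by Slc3a2 (10.6), Slc38a10 (10.5), Slc7a6 (8.16), Slc7a1 (5.59), Slc7a5 (3.18), Slc38a1 (1.66), Slc1a5 (1.31) and Slc1a4 (1.10). Neighbours whose library ranges overlapped in that order were Slc3a2 and Slc38a10, Slc38a10 and Slc7a6, Slc38a1 and Slc1a5, and Slc1a5 and Slc1a4. In Control-CMs the order was Slc38a2 (55.1), Slc38a10 (14.3), Slc3a2 (8.32), Slc7a1 (6.60), Slc7a6 (2.39), Slc38a1 (2.34), Slc1a5 (0.701), Slc1a4 (0.493) and Slc7a5 (0.184). There the overlapping neighbours were Slc7a6 and Slc38a1, and Slc1a5 and Slc1a4. Slc7a5 was thus the least abundant of the listed transporters in controls and stood sixth in OSKM-CMs.

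Both listed light chains rose, while the CD98 heavy chain did not pass the test. Slc3a2 (ENSMUSG00000010095.7) had 10.2, 9.79 and 11.7 scaled RPKM in OSKM-CMs replicates 1, 2 and 3, against 9.27 and 7.38 in Control-CMs replicates 3 and 5. Every OSKM-CMs library lay above both controls, but by little: the lowest of them was close to control replicate 3. The means were 10.6 ± 1.01 (SD, n = 3) in OSKM-CMs and 8.32 ± 1.34 (SD, n = 2) in Control-CMs, and the log2 difference of 0.32 (95% confidence interval -0.04 to 0.68) did not pass (limma adjusted p = 0.159). With library totals alone the value was 0.69 and passed (limma adjusted p = 0.0146).

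Slc7a5 (ENSMUSG00000040010.8), the LAT1 light chain, had 34, 27 and 42 reads in the OSKM-CMs libraries, against 2 and 2 reads in the controls. Its levels were 3.15, 2.47 and 3.91 scaled RPKM in OSKM-CMs, against 0.183 and 0.185 in Control-CMs. The groups lay far apart, although 2 reads in each control say little about the true control level. The ratio of pooled, scaled read rates was 17.2, with an exact 95% counting interval of 6.52 to 64.4. The log2 fold change was 1.80 (SE 0.21, limma adjusted p = 0.000998), a value that the added 1 holds down: it was 3.50 with 0.1 added, 0.65 with 5 added and 3.78 with limma voom on recovered reads, and passed in each. The authors' deposited table gives a log2 fold change of 4.18 for Slc7a5 (FDR 1.24e-09).

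Slc7a6 (ENSMUSG00000031904.4), the y+LAT2 light chain, which exchanges arginine and lysine for neutral amino acids, was higher as well. It had 6.72, 8.01 and 9.73 scaled RPKM in OSKM-CMs, against 2.16 and 2.62 in Control-CMs. The lowest OSKM-CMs library was above both controls, and replicate 3 was the highest. The means were 8.16 ± 1.51 (SD, n = 3) and 2.39 ± 0.323 (SD, n = 2), a 3.41-fold difference with a log2 fold change of 1.42 (SE 0.18, limma adjusted p = 0.00148). Slc7a6os, the next gene along the chromosome, averaged 4.97 scaled RPKM in OSKM-CMs and 4.24 in Control-CMs, and its log2 fold change of 0.22 did not pass (limma adjusted p = 0.506).

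Ratios of the light to the heavy chain within a library do not depend on scaling between libraries. The ratio of Slc7a5 to Slc3a2 RPKM was 0.307, 0.252 and 0.333 in OSKM-CMs, against 0.0198 and 0.0251 in Control-CMs. The ratio of Slc7a6 to Slc3a2 was 0.656, 0.819 and 0.830 in OSKM-CMs, against 0.233 and 0.355 in Control-CMs. Both light chains were thus more abundant relative to the heavy chain in each OSKM-CMs library than in either control. Together they came to 0.964, 1.07 and 1.16 times the heavy chain in OSKM-CMs and 0.253 and 0.380 times in Control-CMs. An exact two-sided permutation test gave p = 0.1 for each of these 3 ratios, which is the smallest p that 3 against 2 libraries allow, so no ratio could pass 0.05.

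**Figure D2:**
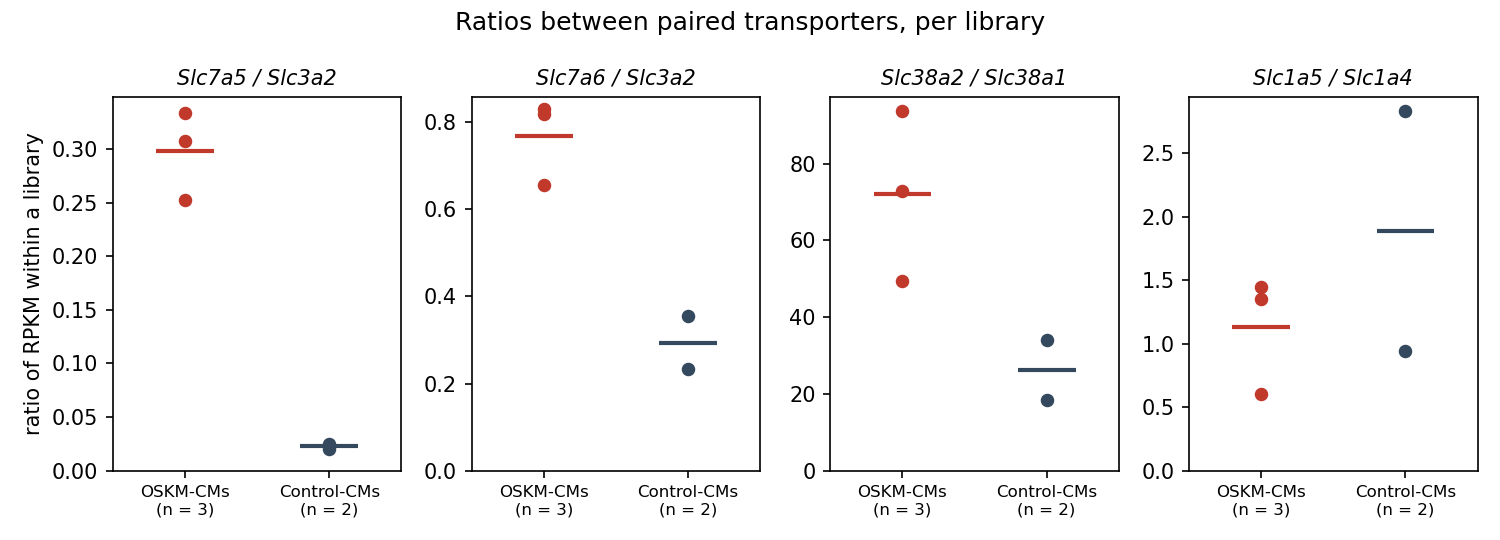
RPKM of 1 transporter divided by that of another in the same library, for 4 gene pairs; points are libraries and bars group means, and each panel has its own linear axis from 0. The 2 light chain ratios and the Slc38a2 to Slc38a1 ratio are higher in every OSKM-CMs library than in either control, while the Slc1a5 to Slc1a4 ratio overlaps.

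The cationic amino acid carrier Slc7a1 (ENSMUSG00000041313.8), known as CAT1, imports arginine and lysine and needs no heavy chain. It had 5.02, 5.85 and 5.91 scaled RPKM in OSKM-CMs, against 6.38 and 6.83 in Control-CMs. All 3 OSKM-CMs libraries were slightly below the controls with TMM scaling. The log2 fold change of -0.21 (95% confidence interval -0.55 to 0.13) did not pass (limma adjusted p = 0.32) and was 0.15 with library totals alone (adjusted p = 0.464), so its direction depended on the scaling.

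Among the Slc38 genes of the transporters described, Slc38a2 rose, while Slc38a1 and Slc38a10 did not pass the test. Other Slc38 genes are given below with the related lists. Slc38a2 (ENSMUSG00000022462.6), encoding SNAT2, had 113, 96.4 and 139 scaled RPKM in OSKM-CMs, against 52.1 and 58.1 in Control-CMs. Even the lowest OSKM-CMs library, replicate 2, was well above the higher control. The difference was 2.11-fold, from means of 116 ± 21.3 (SD, n = 3) in OSKM-CMs and 55.1 ± 4.23 (SD, n = 2) in Control-CMs (log2 fold change 1.05, SE 0.16, limma adjusted p = 0.00309). This gene rested on the most reads of the family, 1608, 1387 and 1962 in OSKM-CMs and 747 and 825 in Control-CMs.

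Slc38a1 (ENSMUSG00000023169.8), which encodes the close relative SNAT1 and lies next to Slc38a2 on the chromosome, did not follow it. It had 1.55, 1.95 and 1.48 scaled RPKM in OSKM-CMs, against 1.54 and 3.14 in Control-CMs. The groups overlapped, and the controls differed from each other more than the OSKM-CMs libraries did. The log2 fold change of -0.29 (95% confidence interval -0.86 to 0.28) did not pass (limma adjusted p = 0.409) and was 0.07 without Control-CMs replicate 5 (adjusted p = 0.869). The ratio of Slc38a2 to Slc38a1 RPKM within a library was 73.0, 49.4 and 93.8 in OSKM-CMs and 33.9 and 18.5 in Control-CMs (exact two-sided permutation p = 0.1, the smallest possible). Slc38a4, the gene on the other side of Slc38a2, averaged 3.04 scaled RPKM in OSKM-CMs and 3.83 in Control-CMs, at a log2 difference of -0.26 (limma adjusted p = 0.371).

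Slc38a10 (ENSMUSG00000061306.8), a less well characterised member of the same family, had 11.8, 11.6 and 8.13 scaled RPKM in OSKM-CMs, against 13.9 and 14.8 in Control-CMs. All OSKM-CMs libraries were below the controls, and replicate 3 was the lowest. The log2 fold change of -0.43 (95% confidence interval -0.84 to -0.01) did not pass after adjustment (limma adjusted p = 0.109). It passed as lower with limma voom on recovered reads (-0.46, adjusted p = 0.042) and was -0.04 with library totals alone (adjusted p = 0.871). In the GENCODE M21 annotation, of a later build, 367 of 6421 exon bases of Slc38a10 lie over exons of Gm11769 on the opposite strand, and no strand setting is stated, so their reads cannot be told apart.

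Slc38a2 made up most of the summed level in every library. The 9 listed transporters summed to 155, 138 and 183 scaled RPKM in OSKM-CMs and 87.0 and 93.9 in Control-CMs, of which Slc38a2 made up 73.3%, 70.1% and 76.0% in OSKM-CMs and 59.9% and 61.8% in Control-CMs. Without Slc38a2 the other 8 summed to 41.2, 41.1 and 43.9 in OSKM-CMs and 34.9 and 35.9 in Control-CMs. The OSKM-CMs sums were higher in both cases, by a wide margin with Slc38a2 and a narrow one without it.

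The alanine, serine and cysteine exchangers were little expressed. Slc1a5 (ENSMUSG00000001918.10), encoding ASCT2, which also carries glutamine, had 20, 7 and 23 reads in OSKM-CMs, against 9 and 9 in Control-CMs. OSKM-CMs replicate 2 was below both controls at 0.541 scaled RPKM, while replicates 1 and 3 had 1.57 and 1.81 and the controls 0.698 and 0.704. The log2 fold change of 0.39 (95% confidence interval -0.28 to 1.06) did not pass (limma adjusted p = 0.339).

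Slc1a4 (ENSMUSG00000020142.6), encoding ASCT1, had 14, 11 and 15 reads in OSKM-CMs, against 9 and 3 in Control-CMs. Its levels were 1.16, 0.90 and 1.25 scaled RPKM in OSKM-CMs and 0.738 and 0.249 in Control-CMs, without overlap. The pooled ratio of read rates was 2.23, with an exact 95% counting interval of 1.15 to 4.67. With no minimum level, its log2 fold change was 0.51 and did not pass (limma adjusted p = 0.0958). The ratio of Slc1a5 to Slc1a4 RPKM was 1.35, 0.601 and 1.45 in OSKM-CMs and 0.945 and 2.83 in Control-CMs, with overlap (exact two-sided permutation p = 0.6).

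**Figure D3:**
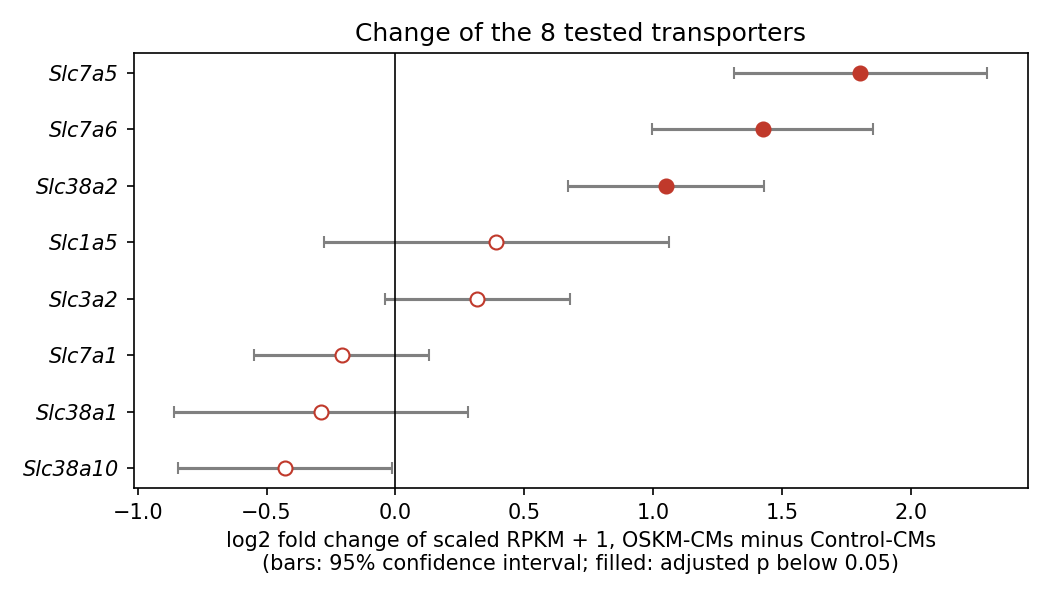
Log2 fold change of scaled RPKM + 1 for the 8 tested transporters, OSKM-CMs minus Control-CMs, with 95% confidence intervals from limma; filled points passed at an adjusted p below 0.05. Slc7a5, Slc7a6 and Slc38a2 lie at 1.80, 1.42 and 1.05, 4 of the other intervals cross 0, and that of Slc38a10 ends at -0.01.

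The genes whose profile over the 5 libraries was most like that of Slc3a2, by root mean square difference of centred log2 levels, were Snapc1, Cdc42, Dph2, Ntan1 and Psma5 (0.02 to 0.04). Those most like Slc7a5 were Cds1, Net1, Rpl3-ps2, Qsox1 and Tspan5 (0.05 to 0.09). With 5 libraries in 2 groups, such likeness mainly reflects a similar difference between groups, and reads of the pseudogene Rpl3-ps2 may come from its parent gene.

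Other plasma membrane transporters of amino acids moved in both directions. Of 35 in the list, 12 were listed and 7 tested, of which 1 was higher, 3 were lower and 3 did not pass, with a median log2 fold change of -0.26, where 15.7% of all tested genes were higher and 14.4% lower. The higher count was 3 with limma voom on recovered reads, 2 with no minimum level and 2 with library totals alone. In these settings 15.2%, 14.8% and 36.5% of all tested genes were higher. Slc6a6, the taurine transporter, had 51.5, 24.8 and 44.4 scaled RPKM in OSKM-CMs, against 14.3 and 9.91 in Control-CMs (log2 fold change 1.61, limma adjusted p = 0.013). Leaving out Control-CMs replicate 5 ended this call, and the list then had 0 higher genes. Slc38a3, the glutamine carrier SNAT3, fell to 4.63, 6.76 and 3.97 scaled RPKM in OSKM-CMs, against 29.6 and 25.3 in Control-CMs (log2 fold change -2.24, limma adjusted p = 0.000395). Within the Slc38 family, SNAT2 and SNAT3 transcripts thus passed the test in opposite directions. Slc36a2, a proton-coupled carrier of small amino acids, fell by 1.31 on the log2 scale and Slc16a10, an aromatic amino acid carrier, by 0.71. Slc7a11, the cystine exchanger that also pairs with Slc3a2, was not analysed here. Of 7 tested lysosomal transporters, 1 was higher and 6 did not pass (median 0.16), where 15.7% of all tested genes were higher. The higher one was Slc38a9, an amino acid sensor of the lysosome, at 9.32, 13.7 and 10.4 scaled RPKM in OSKM-CMs, against 4.66 and 6.31 in Control-CMs (log2 fold change 0.90, limma adjusted p = 0.0126). The table holds a further row under the symbol Slc38a9 (ENSMUSG00000069056.1), not counted in the list, which averaged 4.29 scaled RPKM in OSKM-CMs and 1.96 in Control-CMs (log2 fold change 0.85, limma adjusted p = 0.0335).

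The ATF4 and amino acid response list held calls in both directions. Of 32 genes, 30 were listed and 27 tested, of which 10 were higher, 4 lower and 13 did not pass, with a median log2 fold change of 0.34, against 15.7% higher and 14.4% lower among all tested genes. The share of lower genes was thus near that of all genes. Asns, Mthfd2, Psat1 and Gdf15 exceeded the minimum level only through their OSKM-CMs libraries, and the first 3 of these are among the 10 higher genes. Cth, among the 4 lower genes, exceeded that level only through its Control-CMs libraries, so both counts are a description. Atf4 itself had 58.9, 63.3 and 52.9 scaled RPKM in OSKM-CMs, against 36.1 and 35.6 in Control-CMs (log2 fold change 0.68, limma adjusted p = 0.00524). Asns, asparagine synthetase, had 58, 50 and 60 reads in OSKM-CMs, against 11 and 0 in Control-CMs (log2 fold change 2.33, limma adjusted p = 0.00278). The mitochondrial folate enzyme Mthfd2 rose by 1.90 on the log2 scale, the proline synthesis enzyme Aldh18a1 by 1.79, the serine synthesis enzyme Psat1 by 1.51 and the translation repressor Eif4ebp1 by 1.40. The fallers were Vldlr, a lipoprotein receptor, at -1.51, Cebpb, a transcription factor that partners ATF4, at -1.35, Cth, which makes cysteine, at -1.03 and Gpt2, a mitochondrial alanine aminotransferase, at -0.82. Ddit3, the stress factor CHOP, had a log2 fold change of 0.79 with overlapping groups (limma adjusted p = 0.122), and Sesn2 one of 0.05 (adjusted p = 0.866). Trib3 was not analysed here.

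Genes of amino acid sensing by mTORC1, the kinase complex that leucine and arginine activate, were also called in both directions. Of 37 tested genes, 2 were higher, 3 lower and 32 did not pass, with a median log2 fold change of -0.13, where 15.7% of all tested genes were higher and 14.4% lower. Without Control-CMs replicate 5, or without OSKM-CMs replicate 1 or 3, 1 was higher and 1 lower. Mtor averaged 8.86 scaled RPKM in OSKM-CMs and 9.17 in Control-CMs (log2 fold change -0.04, limma adjusted p = 0.836). Eif4ebp1, whose product mTORC1 phosphorylates and which also stood in the ATF4 list, had 127, 119 and 138 scaled RPKM in OSKM-CMs, against 45.4 and 50.4 in Control-CMs (log2 fold change 1.40, limma adjusted p = 0.000302). Hbxip, a subunit of the lysosomal Ragulator complex, rose by 0.44, while the Rag GTPase gene Rragd fell by 0.73, Kptn by 0.65 and Tsc2, a brake on mTORC1, by 0.49. With library totals alone the list had 9 higher and 0 lower genes, where 36.5% of all tested genes were higher and 5.96% lower.

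Enzymes that use the transported amino acids moved both ways. Of 18 tested genes, 8 were higher, 4 lower and 6 did not pass, with a median log2 fold change of 0.41, against 15.7% higher and 14.4% lower among all tested genes. Asns, Asl and Ass1, 3 of the 8, exceeded the minimum level only through their OSKM-CMs libraries, so this count too is a description. Besides Asns, the argininosuccinate enzymes Asl and Ass1 rose by 1.35 and 0.96 and the spermidine synthase gene Srm by 1.05. The transaminase genes Gpt, Gpt2, Oat and Got2 fell by 1.84, 0.82, 0.54 and 0.43. With either control library left out, 4 genes of this list were higher. The lower count was 1 without Control-CMs replicate 3 or OSKM-CMs replicate 1 or 3, and 2 without Control-CMs replicate 5.

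**Figure D4:**
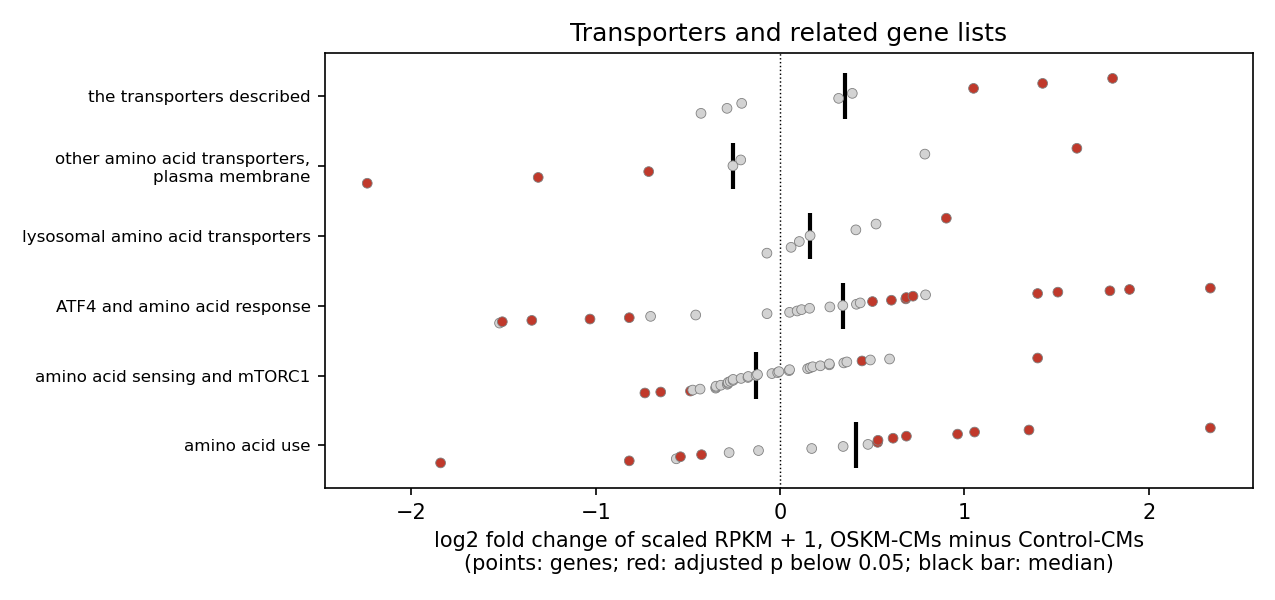
Log2 fold change of scaled RPKM + 1, OSKM-CMs minus Control-CMs, of each tested gene in 6 lists; red points passed at an adjusted p below 0.05 and black bars are list medians. The medians run from -0.26 for other plasma membrane transporters to 0.41 for amino acid use, and every list but the transporters described and the lysosomal ones holds genes called in both directions.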

How the data were processed

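Total RNA of isolated cardiomyocytes was sequenced in 5 libraries. Per the submitters' processing notes, the tools were HTSeq, STAR 2.5.3, Trimmomatic, FastQC and CASAVA 1.8.2, and the build was mm9; annotation and strand setting are not given in the sources used here. The authors' deposited library values were RPKM, a unit inferred from the values. The authors' deposited table also holds a log2 fold change, a log2 abundance, a likelihood-ratio score, and a p-value and FDR per gene. Each of the 12446 genes reached 1 CPM in 2 or more libraries. Whole reads were recovered from the RPKM steps for 100% of genes (tolerance 0.0001 reads), and gene lengths came out whole. For 440 genes whose reads shared a divisor, the authors' abundance decided the multiple, and totals matched within 2 reads.

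RPKM were divided by TMM factors (trims of 0.3 and 0.05) computed from the recovered reads. Genes with a mean of at least 1 (10901) were fitted as log2(value + 1) with limma 3.58.1 (R 4.3.3), with abundance trend and robust empirical Bayes, two-sided. Recovery and fit were tested on simulated data. The added 1 understates changes of low genes. The transporters, gene lists and tests were chosen with earlier results of these data known. Named genes were all listed transporters, fixed landmark genes (Myc, Atf4, Ddit3, Asns, Trib3, Sesn2, Mtor, Slc7a11, Slc38a9), up to 4 of the largest called rises and falls per list, and the 5 genes most like Slc3a2 and Slc7a5. Slc7a6os, Slc38a4 and Gm11769 were added as chromosome neighbours. Alternatives were other pseudocounts, minimum levels and scalings, limma voom on recovered reads (3783 genes called), and leaving out each library.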

Additional observations from a re-analysis of the deposited data

How the results depend on the processing

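Slc7a5, Slc7a6 and Slc38a2 passed as higher under every alternative in which they were tested (12, 13 and 13 settings), with limma adjusted p up to 0.00788, 0.0103 and 0.0218. With a minimum mean of 5 scaled RPKM, Slc7a5 was not tested and 2 of 5 tested members were higher, where 19.9% of all tested genes were. Members called lower numbered 1 of 9 (Slc38a10) with limma voom on recovered reads, where 15.2% of all tested genes were lower. Of 99 alternative values for the 8 tested members, 95 kept their direction and side of the threshold. The log2 fold change of Slc7a1 was 0.15 with library totals only, and that of Slc38a1 ran from -0.65 to 0.067 when 1 library was left out, at -0.65 without Control-CMs replicate 3 and 0.067 without Control-CMs replicate 5. Slc3a2 passed with library totals only, and Slc38a10 with limma voom.

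Of all tested genes, 3985 were higher and 650 lower with library totals only, 2594 and 1028 with totals without mitochondrial genes, and 1715 and 1565 in the main comparison, so higher genes made up 86.0%, 71.6% and 52.3% of calls. Leaving out 1 library gave 1143 (without OSKM-CMs replicate 3) to 1534 higher and 964 (without Control-CMs replicate 5) to 1509 lower genes. Without 1 OSKM-CMs library, 10.5% to 14.2% of all tested genes were higher and 9.78% to 14.0% lower. The cause of these shifts was not tested. With library totals only, the lysosomal list had 3 higher genes, the ATF4 list 2 lower and the amino acid use list 1 lower. Of all tested genes, 36.5% were then higher and 5.96% lower. Without either control library, 2 genes of the ATF4 list were lower. In the sensing list 1 gene was lower without either control or without OSKM-CMs replicate 1 or 3, and 1 was higher without Control-CMs replicate 5 or OSKM-CMs replicate 1 or 3. In the use list 1 gene was lower without Control-CMs replicate 3 or OSKM-CMs replicate 1 or 3 and 2 without Control-CMs replicate 5, and 5 were higher without OSKM-CMs replicate 3. Among other plasma membrane transporters, 1 was lower without Control-CMs replicate 5. With a minimum mean of 5, the ATF4 list had 6 higher genes, the use list 4 and the other plasma membrane transporters 1 lower. Of all genes tested at that minimum, 19.9% were higher and 20.5% lower. No paired analysis was possible because replicate 3 is the sole number both groups carry. Depth limits the low genes: Slc7a5, Slc1a5 and Slc1a4 had 4, 18 and 12 control reads in all.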
